A study of Homo sapiens with 8 samples.

Results

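The genes described here are 8 regulators of the kidney lineage, PAX2, PAX8, LHX1, EYA1, SIX2, WT1, SALL1, and OSR1. They were chosen by name, as the array probes whose RefSeq transcript belongs to one of these symbols, and they account for 8 of the 19483 genes named on the array and 10 of its 34127 non-control probes. RNA from 8 stable HEK293T lines, derived from human embryonic kidney, was hybridized to 8 single-color Agilent arrays, with 2 independently isolated clones for each of 4 constructs. The constructs were the empty pcDNA6 vector (clones #1 and #2), TET1-CDwt, the catalytic domain of the 5-methylcytosine oxidase TET1 without a targeting domain (#2 and #5), MBD-TET1-CDwt, in which that domain is joined to the MBD, the part of MBD2 that binds methylated CpG sites (#3 and #10), and MBD-TET1-CDmut, the fusion with a catalytically inactive domain (#9 and #10). All lines share the HEK293T background and the vector, each line is 1 clone that grew out under selection, and no untransfected HEK293T array was analysed here. The comparisons ask whether genes of the line's tissue of origin differed when TET1 activity was brought to methylated DNA.

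Kidney development starts when the intermediate mesoderm gives rise to the ureteric bud and to the metanephric mesenchyme around it. OSR1, EYA1, PAX2, SALL1, SIX2, and WT1 act in the mesenchyme, where SIX2 keeps nephron progenitors in an undifferentiated state, and PAX2, PAX8, and LHX1 act in the epithelium that the intermediate mesoderm and the progenitors form. PAX2 and PAX8 are paired-box factors with overlapping roles, LHX1 is a LIM homeodomain factor, SALL1 and WT1 are zinc finger factors, and EYA1 is a phosphatase that works as a co-activator of SIX2 and its relatives.

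The MBD of the fusions binds methylated CpG sites, so the CpG sites before the transcription starts are shown for the members that had a RefSeq promoter entry and that the values below turn on (RefSeq, GRCh38.p14, 250 bases upstream of the start, 5′ to 3′ on the gene's strand, CpG dinucleotides in capitals). Promoter entries matched PAX2, PAX8, SIX2, and WT1, and their methylation was not analysed here.
PAX2, chr10:100735146-100735395, plus strand: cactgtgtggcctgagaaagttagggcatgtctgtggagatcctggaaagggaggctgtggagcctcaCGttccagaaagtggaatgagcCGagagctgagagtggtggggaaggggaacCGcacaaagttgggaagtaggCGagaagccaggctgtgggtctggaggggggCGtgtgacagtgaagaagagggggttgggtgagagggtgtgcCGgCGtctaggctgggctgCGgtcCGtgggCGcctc
PAX2, chr10:100745332-100745581, plus strand: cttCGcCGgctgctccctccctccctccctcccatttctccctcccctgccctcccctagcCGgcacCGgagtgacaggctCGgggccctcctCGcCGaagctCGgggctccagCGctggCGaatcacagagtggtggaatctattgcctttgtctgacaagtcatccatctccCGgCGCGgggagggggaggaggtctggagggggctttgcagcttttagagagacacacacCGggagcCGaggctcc
PAX8, chr2:113278922-113279171, minus strand: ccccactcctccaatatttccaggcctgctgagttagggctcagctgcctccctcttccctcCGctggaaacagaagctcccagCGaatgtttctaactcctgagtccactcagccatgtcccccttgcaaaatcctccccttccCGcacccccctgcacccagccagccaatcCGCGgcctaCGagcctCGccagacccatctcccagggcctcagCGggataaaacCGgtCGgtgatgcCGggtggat
SIX2, chr2:45009453-45009702, minus strand: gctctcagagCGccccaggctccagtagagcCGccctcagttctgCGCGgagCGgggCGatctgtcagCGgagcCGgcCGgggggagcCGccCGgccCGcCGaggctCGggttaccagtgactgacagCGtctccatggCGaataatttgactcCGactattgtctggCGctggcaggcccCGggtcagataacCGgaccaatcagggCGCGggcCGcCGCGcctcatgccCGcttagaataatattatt
WT1, chr11:32435540-32435789, minus strand: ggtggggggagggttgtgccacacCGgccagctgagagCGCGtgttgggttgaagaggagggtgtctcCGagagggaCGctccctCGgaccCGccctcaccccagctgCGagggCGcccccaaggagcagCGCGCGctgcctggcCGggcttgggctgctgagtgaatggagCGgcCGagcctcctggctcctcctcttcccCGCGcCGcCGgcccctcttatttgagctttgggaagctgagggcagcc
The SIX2 sequence held 26 CpG sites, and 19.6% of all 35114 RefSeq promoters of this length held as many or more. The PAX8 sequence held 11, which 50.3% of all promoters reached, and the PAX2 sequences held 10 and 15. The WT1 sequence shown held 19, and the other 3 starts of WT1 held 3, 18, and 13. Across the 8 promoter sequences of these 4 genes the median was 14 CpG sites, between the 11 of all RefSeq promoters and the 17 of promoters of genes on the array. The pattern searched was CG, which reads the same on both strands.

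Signals are given as the log2 of the processed intensity minus the 75th percentile of the same array, so a value of 0 is the intensity at that percentile, and values are compared for 1 probe across arrays and not between probes. A probe counted as well above background when Agilent's flag was set for more than 50% of its usable spots. The lowest signal with that flag lay between -6.01 and -5.82 on the empty vector and TET1-CDwt arrays. On the arrays of the MBD fusions it lay between -5.56 and -5.51. The share of probes well above background was 65.8% to 68.2% on the former and 63.2% to 64.6% on the latter. The 75th percentile was an intensity of 328 to 527. Slide 1 carried the arrays of the empty vector and TET1-CDwt, and slide 2 those of the MBD fusions, so slide and construct cannot be told apart where a fusion is compared with the empty vector. TET1-CDwt against the empty vector, and MBD-TET1-CDwt against MBD-TET1-CDmut, are comparisons within 1 slide. The 2 probes of TET1 itself were well above background on all 8 arrays, between -1.55 and -0.70 and between 2.61 and 2.94. Where these probes lie relative to the expressed domain is not given in the sources used here, so they do not check the labels. Differences were tested with limma over 22530 probes, and p-values measure only the spread between the 2 clones of a construct.

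By this flag, 7 of the 8 genes were well above background on both empty vector arrays, namely PAX2, PAX8, LHX1, EYA1, SIX2, WT1, and SALL1. The count was 6 in each of the other constructs, which lacked PAX8 on at least 1 array. The lowest flagged signal was higher on the fusion arrays, and its part in counts by construct was not tested. OSR1 did not reach the flag on any array. The probes of these 7 genes passed the filter of the test through at least 1 construct, and OSR1, the second probe of PAX2, and the second probe of EYA1 did not. For 6 of the genes every array was well above background, and counts over members below are given for these 6 unless 7 or 8 genes are stated. Counts over 7 or 8 genes include PAX8. PAX8 passed the filter through the empty vector alone, the construct where all its arrays were well above background, so its test is not independent of that filter.

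The paired-box genes differed in how well they were measured. PAX2 (probe for NM_003988) gave -2.00 and -0.70 in empty vector #1 and #2, -0.52 and -1.19 in TET1-CDwt #2 and #5, -2.22 and -0.96 in MBD-TET1-CDwt #3 and #10, and -0.71 and -0.85 in MBD-TET1-CDmut #9 and #10. It was lowest in 1 empty vector clone and 1 MBD-TET1-CDwt clone, and the sister clones differed 2.47-fold in the empty vector and 2.39-fold in MBD-TET1-CDwt. The highest and lowest construct means were 0.81 apart, against a pooled SD between sister clones of 0.69. Of the tested probes, 94.1% had a lower SD between clones. The arrays read whole cultures, so fewer cells with a transcript and less of it per cell cannot be told apart. In MBD-TET1-CDwt the log2 difference from the empty vector was -0.24 (standard error 0.54, 95% interval -1.53 to 1.05, limma adjusted p = 0.961). From MBD-TET1-CDmut it was -0.81 (standard error 0.54, 95% interval -2.10 to 0.48, limma adjusted p = 0.828), so these arrays do not fix the direction for PAX2. Both MBD-TET1-CDwt values lay below both MBD-TET1-CDmut values. The other PAX2 probe, for NM_003990, was not well above background on any array, with signals of -7.73 to -6.31.

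PAX8 (NM_003466) lay at the edge of detection. Its signals were -5.51 and -5.53 in empty vector #1 and #2, and -4.87 and -5.95 in TET1-CDwt #2 and #5, where #5 was not well above background. They were -6.10 and -6.50 in MBD-TET1-CDwt #3 and #10 and -6.06 and -6.13 in MBD-TET1-CDmut #9 and #10, not well above background on any of these 4 arrays. All 4 fusion arrays lay below all 4 arrays without MBD, a split that is also the split between the slides. As a bound, the empty vector mean was at least 1.01-fold that of either fusion (limma adjusted p = 1.00 for the mutant and 0.779 for the wild-type fusion), and no fold is given between the fusions. A total of 9152 other probes lacked the flag on each of the 8 arrays. Their median log2 difference from the empty vector was 0.35 in MBD-TET1-CDmut and 0.37 in MBD-TET1-CDwt. The part of the slide in the PAX8 values was not tested.

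Among the mesenchyme genes, EYA1 was measured by 2 probes for the same transcript, NM_000503. The brighter probe gave -3.43 and -3.20 in empty vector #1 and #2, -3.77 and -3.15 in TET1-CDwt #2 and #5, -2.78 and -3.79 in MBD-TET1-CDwt #3 and #10, and -2.91 and -3.55 in MBD-TET1-CDmut #9 and #10. The highest and the lowest array were both MBD-TET1-CDwt clones, 2.03-fold apart, while the construct means stayed within 0.23 of each other. The dimmer probe was well above background on 3 arrays, at -5.26 in empty vector #2, -4.99 in TET1-CDwt #5, and -4.70 in MBD-TET1-CDwt #3. In each of these 3 constructs the flagged clone was also the higher of the sister clones by the brighter probe. The dimmer probe did not reach the flag on either MBD-TET1-CDmut array. In MBD-TET1-CDwt the log2 difference of the brighter probe from the empty vector was 0.03 (standard error 0.40, 95% interval -0.92 to 0.99, limma adjusted p = 0.993). That interval just excludes a 2-fold change in either direction, but its upper end was 1.04 with quantile and 1.01 with median scaling. The dimmer probe, fitted without the filter, gave an interval of -2.15 to 1.39.

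SIX2 (NM_016932), the marker of self-renewing nephron progenitors, gave the only member difference with an unadjusted p under 0.05 in the main setting. It stood at -1.52 and -1.92 in empty vector #1 and #2, -1.61 and -2.07 in TET1-CDwt #2 and #5, -1.27 and -1.25 in MBD-TET1-CDwt #3 and #10, and -1.77 and -1.96 in MBD-TET1-CDmut #9 and #10. Both MBD-TET1-CDwt clones lay above all 6 other arrays. The mean of MBD-TET1-CDwt was -1.26 ± 0.01 (SD, n = 2), and that of MBD-TET1-CDmut was -1.87 ± 0.14 (SD, n = 2). Within slide 2, the MBD-TET1-CDwt mean of SIX2 was thus 1.52-fold the MBD-TET1-CDmut mean (log2 difference 0.61, standard error 0.23, 95% interval 0.06 to 1.15, limma adjusted p = 0.701). This difference did not pass the adjusted threshold. At the unadjusted threshold 6.84% of all tested probes differed in that comparison, and 1 of the 7 members did. With normexp background correction the difference was -0.02 (limma adjusted p = 0.996), or 0.19 relative to the median of all tested probes, which that correction put at -0.21. The unadjusted p of limma rose from 0.0353 to between 0.0661 and 0.157 when any 1 of the 4 compared clones was left out. Against the empty vector the log2 difference was 0.46 (standard error 0.23, 95% interval -0.09 to 1.01, limma adjusted p = 0.810).

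SALL1 (NM_002968), which the mesenchyme needs to draw in the ureteric bud, was the steadiest of the genes. It gave -1.34 and -1.32 in empty vector #1 and #2, -1.25 and -1.11 in TET1-CDwt #2 and #5, -1.06 and -1.11 in MBD-TET1-CDwt #3 and #10, and -1.32 and -1.46 in MBD-TET1-CDmut #9 and #10. Only 2.86% of the tested probes had a pooled clone SD as low as its 0.07. MBD-TET1-CDwt was highest on average and MBD-TET1-CDmut lowest, 1.24-fold apart (log2 difference 0.31, standard error 0.16, 95% interval -0.09 to 0.70, limma adjusted p = 0.780). The standard error is larger than the clone SD of SALL1 alone would give, because limma draws the spread of each probe toward that of all probes.

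OSR1 (NM_145260), the earliest of these factors in the intermediate mesoderm, gave signals of -7.99 and -5.97 in empty vector #1 and #2, -8.17 and -8.11 in TET1-CDwt, -7.63 and -7.72 in MBD-TET1-CDwt, and -7.70 and -7.73 in MBD-TET1-CDmut. Empty vector #2 gave the highest of these signals and was not well above background either. No fold is given, since no array was well above background.

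LHX1 (NM_005568), a factor of the intermediate mesoderm and the early nephron epithelium, gave 1.06 and 1.09 in empty vector #1 and #2, 1.02 and 1.50 in TET1-CDwt #2 and #5, 1.48 and 1.40 in MBD-TET1-CDwt #3 and #10, and 1.21 and 1.11 in MBD-TET1-CDmut #9 and #10. Each value exceeded the 75th percentile of its array. MBD-TET1-CDwt had the highest mean, 1.29-fold that of the empty vector (log2 difference 0.37, standard error 0.20, 95% interval -0.12 to 0.85, limma adjusted p = 0.832). TET1-CDwt #5 was the highest of the 8 arrays and its sister clone #2 the lowest.

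WT1 (NM_024426), needed by the mesenchyme and later by podocytes, had 10 spots on each array and so carries its own measure of the technical error. The means were -3.51 and -3.60 in empty vector #1 and #2, -3.43 and -3.07 in TET1-CDwt #2 and #5, -2.95 and -3.34 in MBD-TET1-CDwt #3 and #10, and -3.34 and -3.14 in MBD-TET1-CDmut #9 and #10. The empty vector arrays were the lowest of the 8. Within an array the SD of the spots was 0.08 to 0.12 with 9 or 10 usable spots, whereas the MBD-TET1-CDwt clones differed by 0.39 and the TET1-CDwt clones by 0.36. Compared with the empty vector, the log2 difference was 0.40 in MBD-TET1-CDwt (standard error 0.22, 95% interval -0.12 to 0.92, limma adjusted p = 0.827), 0.30 in TET1-CDwt (standard error 0.22, limma adjusted p = 1.00), and 0.31 in MBD-TET1-CDmut (standard error 0.22, limma adjusted p = 1.00). MBD-TET1-CDwt and MBD-TET1-CDmut were 0.09 apart (95% interval -0.43 to 0.61). The direction of WT1 turned in all 4 comparisons with normexp background correction, also relative to the median of all tested probes, which for MBD-TET1-CDwt against the empty vector gave -0.48.

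**Figure D1:**
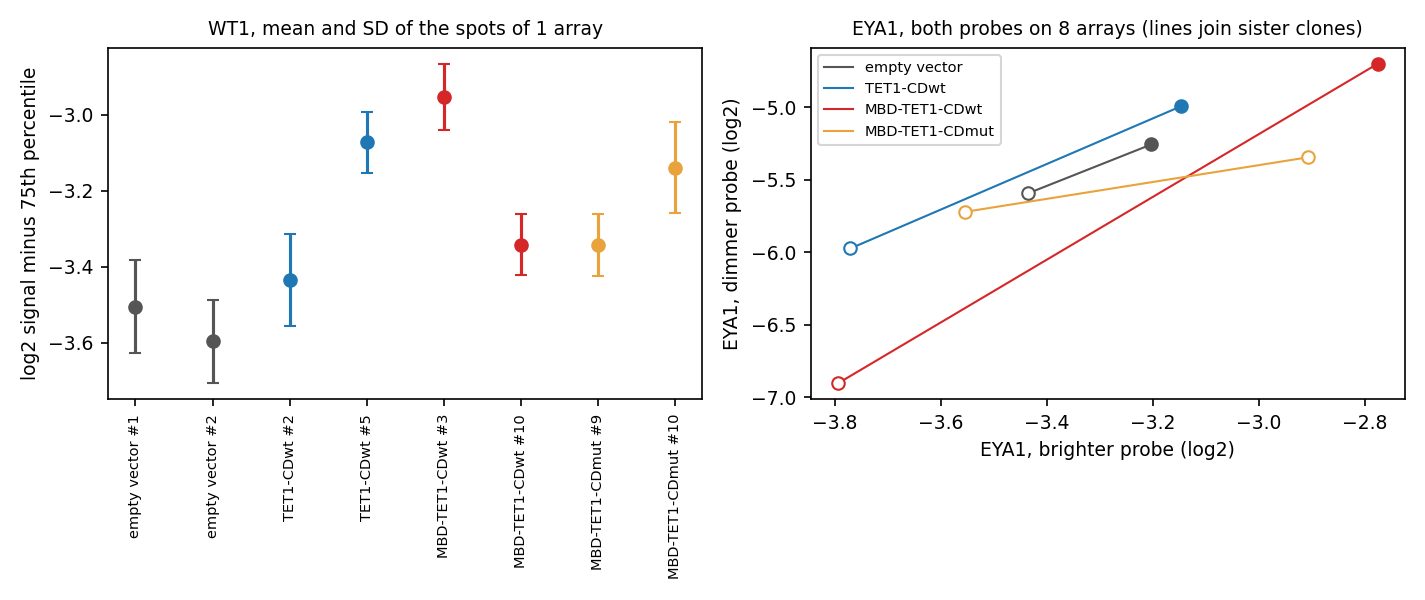
Left, WT1 signal (y axis, log2 intensity minus the array's 75th percentile) on each array as the mean of 9 or 10 spots with their SD; right, the brighter (x axis) and dimmer (y axis) probe of EYA1 on 8 arrays, with lines joining sister clones and open points where the dimmer probe was not well above background. WT1 sister clones lie up to 0.39 apart, and in the 3 constructs with a filled point the filled clone is the higher one by both EYA1 probes.

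Antisense transcripts named for WT1 and PAX8 have probes of their own and were added outside the rule for named genes. WT1-AS was well above background on all 8 arrays, at -3.18 and -2.73 in empty vector #1 and #2, -3.19 and -2.74 in TET1-CDwt #2 and #5, -2.72 and -1.74 in MBD-TET1-CDwt #3 and #10, and -2.65 and -2.43 in MBD-TET1-CDmut #9 and #10. Its log2 difference between MBD-TET1-CDwt and the empty vector was 0.72 (standard error 0.35, limma adjusted p = 0.799). PAX8-AS1 was not well above background on any array.

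Over the 7 genes tested, limma called 0 in each of the 4 comparisons at an adjusted p under 0.05. The share of all probes called was 0% for TET1-CDwt against the empty vector, 0.115% for MBD-TET1-CDwt against the empty vector, 0% for MBD-TET1-CDmut against the empty vector, and 0.102% for MBD-TET1-CDwt against MBD-TET1-CDmut. At an unadjusted p under 0.05 the members gave 0, 0, 0, and 1 call, the last being SIX2, where 2.5%, 6.6%, 2.68%, and 6.84% of all probes passed in the same order. By size, 0 of the 8 genes were at least 2-fold apart without overlap in any comparison, against 0.693%, 1.93%, 0.681%, and 2.21% of the probes that could be counted.

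The 6 genes measured on every array gave 24 differences, with adjusted p-values between 0.701 and 1.00. All 24 were below 2-fold, and for 15 of them the 95% interval also lay within 2-fold in both directions. In the main setting LHX1, WT1, and SALL1 had such intervals in all 4 comparisons, SIX2 in 2, and EYA1 in 1. These counts depend on the processing. For MBD-TET1-CDwt against the empty vector, the upper end for WT1 was 1.01 with quantile and with median scaling. With normexp in that comparison, the upper end for LHX1 was 1.82 and the lower end for SALL1 was -1.14. PAX2 had none, so its intervals do not exclude a 2-fold change.

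**Figure D2:**
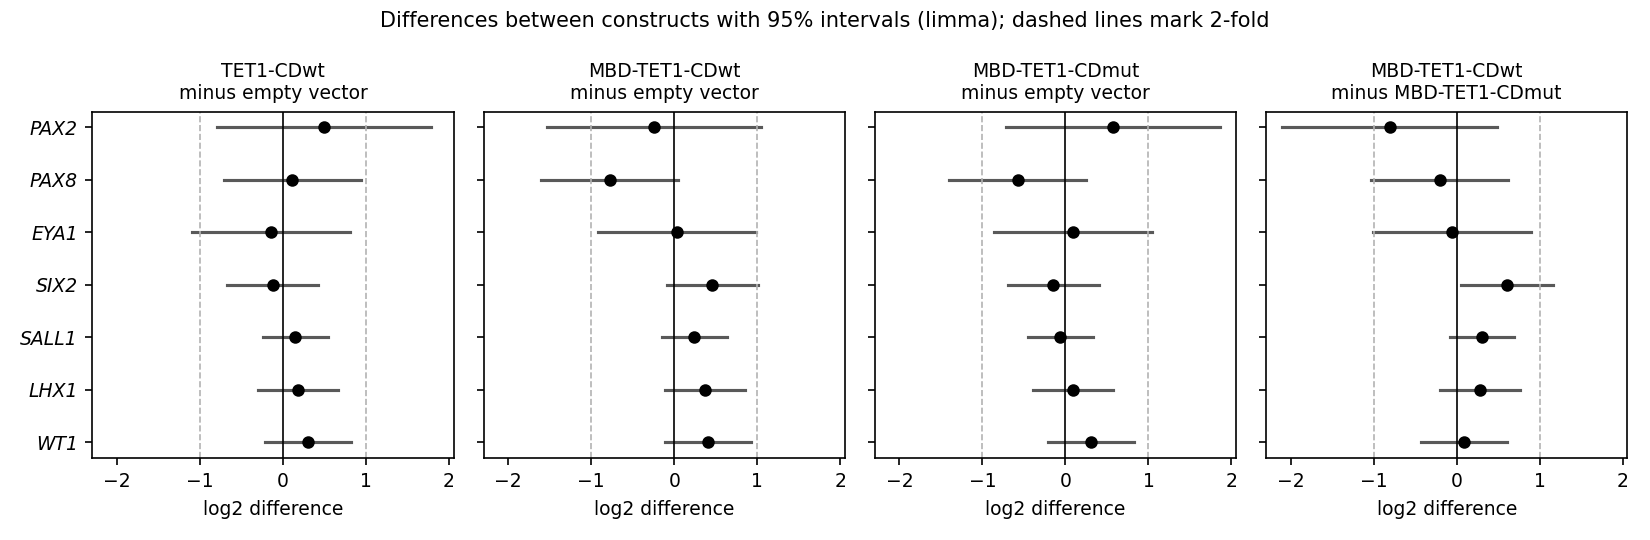
Log2 differences between constructs (x axis) for the 7 genes tested, as points with 95% intervals from limma, 1 panel for each comparison, with dashed lines at 2-fold. The interval excludes 0 for SIX2 between MBD-TET1-CDwt and MBD-TET1-CDmut, and the widest intervals are those of PAX2. PAX8 rests largely on signals not well above background.

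Without a threshold of size, the arrays of the constructs did not overlap for 2 of the 6 genes in TET1-CDwt against the empty vector (WT1 and SALL1, both higher), where 27.7% of all tested probes did not overlap. In MBD-TET1-CDwt against the empty vector they did not overlap for 4, LHX1, SIX2, WT1, and SALL1, all higher, where the share of all probes was 30.8%. For MBD-TET1-CDmut against the empty vector the count was 2, LHX1 and WT1, both higher, with 34.7% of all probes. Between the fusions it was 4, LHX1, SIX2, and SALL1 higher and PAX2 lower in MBD-TET1-CDwt, with 36% of all probes. Among the 20326 probes well above background on all 8 arrays these shares were 26.8%, 29.8%, 34.1%, and 35.3%. The first 3 comparisons share the empty vector arrays. The median log2 difference of the 6 genes was 0.17, 0.30, 0.09, and 0.19 in the same order of comparisons, beside -0.03, -0.01, -0.02, and 0.01 over those 20326 probes.

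The spread between sister clones varied between genes and constructs. The absolute log2 difference between sister clones had a median over the 6 genes of 0.46 in TET1-CDwt, 0.17 in MBD-TET1-CDmut, 0.23 in MBD-TET1-CDwt, and 0.16 in the empty vector. Over the 20326 probes these medians were 0.25, 0.16, 0.35, and 0.21. Differences of at least 2-fold between sister clones occurred for PAX2 in the empty vector and for PAX2 and EYA1 in MBD-TET1-CDwt, and for 0 of the 6 genes in the other constructs. MBD-TET1-CDwt #3 was lower than #10 for PAX2 and higher for EYA1 and WT1. The range of the construct means was 4.11 times the clone SD for SALL1 and 2.67 times for SIX2, but 0.47 times for EYA1. The SALL1 range itself was 0.31, below the median of 0.36 over all tested probes, so its ratio rests on its low clone SD. A lower range than that of SIX2 was found for 79.3% of the tested probes.

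**Figure D3:**
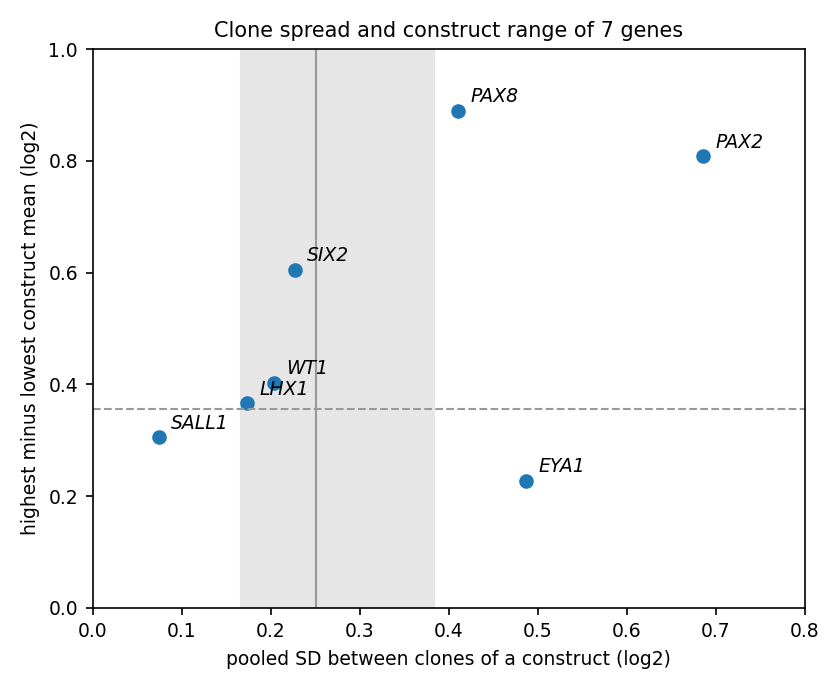
Pooled SD between sister clones (x axis) and the distance from the lowest to the highest construct mean (y axis), both on the log2 scale, for the 7 genes tested, with the median (line) and the quartiles (gray band) of the clone SD of 22530 probes and the median of their range of means (dashed line). SALL1 has the lowest clone SD at 0.07 and PAX2 the highest at 0.69.

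The partners and neighbors of these factors in the kidney program were read from 5 lists, with neural and adrenal cells as another cell type, since HEK293 cells are known to express neuronal genes. The lists hold 100 genes, all on the array. Of 16 paralogs and partners of the members, 13 or 14 were well above background on both arrays of each construct. The counts were 11 to 13 of 17 genes of GDNF-RET signaling and the ureteric bud, 7 or 8 of 14 genes of nephron progenitors and induction, and 7 or 8 of 14 podocyte and stromal genes. Of 20 genes of the differentiated tubule the counts were 7 in the empty vector, 4 in MBD-TET1-CDwt, and 5 in each of the other constructs, and 11 were not well above background on any array. Of 19 neural and adrenal genes, 11 were well above background in each construct.

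limma called 0 of the 72 list probes that passed the filter in each of the 4 comparisons at an adjusted p under 0.05. At an unadjusted p under 0.05, 0 were higher and 3 lower in TET1-CDwt than in the empty vector (AQP1, ATP6V1B1, and SALL4, of which AQP1 and SALL4, like GATA2 and SOX9 below, were named after their values were seen), 7 higher (FOXC1, GATA2, GDNF, HAND2, ITGA8, ROBO2, and SOX9) and 1 lower (BMP7) in MBD-TET1-CDwt, and 0 higher and 3 lower in MBD-TET1-CDmut (ATP6V1B1, DACH2, and SALL4). Between the fusions MBD-TET1-CDwt was higher for 7 (DACH2, GDNF, HAND2, ITGA8, OSR2, ROBO2, and SALL4) and lower for 4 (BMP7, CHGA, GFRA1, and SYP). Among them GFRA1, OSR2, and SYP were named after their values were seen. DACH2, GDNF, ITGA8, and ROBO2 were not well above background on either MBD-TET1-CDmut array. The probes under the unadjusted threshold were 4.17%, 11.1%, 4.17%, and 15.3% of the list probes, to be read against the 2.5%, 6.6%, 2.68%, and 6.84% of all probes given above. GDNF and ATP6V1B1 passed the filter through 1 construct alone, the one where they were highest. ROBO2 and ITGA8 passed through TET1-CDwt and MBD-TET1-CDwt, and DACH2 through the empty vector and TET1-CDwt. Where a fusion is set against the empty vector, only the higher construct let these probes in, so their tests are not independent of the filter. Of the probes with an unadjusted p under 0.05, 2, 5, 1, and 7 were well above background on all 8 arrays in the same order of comparisons. The median log2 difference between MBD-TET1-CDwt and the empty vector was 0.00 for the partners, 0.29 for GDNF-RET signaling, -0.13 for nephron progenitors, 0.04 for podocytes and stroma, -0.12 for the tubule, and 0.13 for neural and adrenal cells, beside -0.02 over all tested probes.

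Among the partners, the transcriptional cofactor DACH1, which works with EYA1 and SIX2 family proteins, had 2 probes with log2 differences of 0.80 (standard error 0.43, limma adjusted p = 0.827) and 0.82 (standard error 0.46, limma adjusted p = 0.834) between MBD-TET1-CDwt and the empty vector. Both were set by clone #3, at 2.79 against 1.50 in #10 by the brighter probe, as for EYA1. Its relative DACH2 was well above background on both empty vector and both TET1-CDwt arrays and on MBD-TET1-CDwt #10, and on no MBD-TET1-CDmut array, where both signals were -7.66 and -7.68. The empty vector mean was at least 2.14-fold that of MBD-TET1-CDmut (limma adjusted p = 1.00). The DACH2 probe entered the test through the empty vector and TET1-CDwt, so this value is not independent of the filter.

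In the pathway from the mesenchyme to the ureteric bud, GDNF, the ligand of RET, gave -5.43 and -5.94 in empty vector #1 and #2, the latter not well above background, and -4.86 and -4.25 in MBD-TET1-CDwt #3 and #10. With 1 of the 2 empty vector arrays measured, the fold was 2.19 (limma adjusted p = 0.708), and the probe entered the test through MBD-TET1-CDwt alone. Of the 3 other GDNF probes, one reached the flag in MBD-TET1-CDwt #10 and the others on no array. ROBO2, a SLIT receptor that limits where GDNF is expressed, gave -5.55 and -6.34 in the empty vector, the latter not well above background, and -4.17 and -4.91 in MBD-TET1-CDwt (2.36-fold with the dim array at its floor, limma adjusted p = 0.528 on the signals as measured). Neither gene was well above background in MBD-TET1-CDmut. Both MBD-TET1-CDwt clones exceeded all 6 other arrays for each of these genes, which were named for their difference between MBD-TET1-CDwt and the empty vector. The other probe of ROBO2 was not well above background on any array.

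Integrin alpha 8, encoded by ITGA8 and used by the mesenchyme to hold up GDNF expression, gave -5.52 and -4.77 in the empty vector, the former not well above background, -3.93 and -4.38 in TET1-CDwt, -4.19 and -2.07 in MBD-TET1-CDwt, and no signal well above background in MBD-TET1-CDmut. Its log2 difference between MBD-TET1-CDwt and the empty vector was 2.01 (standard error 0.66, limma adjusted p = 0.674), and its mean there was at least 4.67-fold the MBD-TET1-CDmut mean (limma adjusted p = 0.568). TET1-CDwt #2 lay above MBD-TET1-CDwt #3. BMP7, a survival factor of nephron progenitors, had 3 probes with log2 differences of -0.20, -0.14, and -0.69 from the empty vector in MBD-TET1-CDwt (limma adjusted p = 0.944, 0.940, and 0.638).

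For the stroma, FOXC1 had a log2 difference of 0.54 (standard error 0.21, limma adjusted p = 0.755) between MBD-TET1-CDwt and the empty vector. FOXC1 was also higher than the empty vector by 0.33 in TET1-CDwt and by 0.30 in MBD-TET1-CDmut. Between the fusions its log2 difference was 0.24 (limma adjusted p = 0.882). TBX18 gave -2.56 and -3.12 in the empty vector, and -1.51 in MBD-TET1-CDwt #3 against -2.95 in #10, so its difference of 0.61 (limma adjusted p = 0.888) was carried by clone #3. For the tubule, the phosphate transporter SLC34A1 gave -5.46 and -4.40 in the empty vector and -4.84 in MBD-TET1-CDwt #3, and was not well above background in #10. The proton pump subunit ATP6V1B1 gave -4.99 and -5.13 in the empty vector. MBD-TET1-CDwt #3 and #10 gave -5.19 and -5.66, neither well above background, although TET1-CDwt #2 was so at -5.57. The ATP6V1B1 log2 difference from the empty vector was -0.36 for the wild-type fusion, -0.69 for TET1-CDwt, and -0.64 for the mutant fusion. Both tubule probes passed the filter through the empty vector alone. In the neural and adrenal list, HAND2, a factor of sympathetic neurons and other tissues, gave -5.35 and -5.32 in the empty vector. MBD-TET1-CDwt gave -3.53 and -2.72, 4.63-fold the empty vector mean (log2 difference 2.21, standard error 0.50, limma adjusted p = 0.420). HAND2 was at -5.58 and -4.03 in TET1-CDwt #2 and #5, and at -4.97 on both MBD-TET1-CDmut arrays. Chromogranin A, encoded by CHGA, gave -0.90 and -1.29 in the empty vector and -3.08 and -1.53 in MBD-TET1-CDwt #3 and #10 (log2 difference -1.21, standard error 0.60, limma adjusted p = 0.805). TET1-CDwt #2 and #5 gave -0.08 and -1.53, and the CHGA difference from the empty vector was carried largely by MBD-TET1-CDwt #3. By size, 5 of the 72 list probes were at least 2-fold apart without overlap in MBD-TET1-CDwt against the empty vector (HAND2, ITGA8, ROBO2, and GDNF higher, CHGA lower), where 1.93% of all probes were. In MBD-TET1-CDmut 2 were (SALL4 and DACH2, lower), with 0.681% of all probes, and in TET1-CDwt 0, with 0.693%. Between the fusions the count was 4, HAND2 and ITGA8 higher and CHGA and GFRA1 lower in MBD-TET1-CDwt, with 2.21% of all probes.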

How the data were processed

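RNA of 8 stable HEK293T lines was measured on 8 arrays. The authors scanned the arrays and deposited Agilent Feature Extraction output, from which the processed intensity was read (version 10.7.3.1 in the file headers, 9.5.1 in the submitters' processing notes), background-subtracted by that software and not scaled between arrays. The series-wide table deposited beside them gave equal intensity values for all 44495 features of each array. How the study scaled and compared the arrays is not given in full in the sources used here, since its array methods point to an earlier description.

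Outlier-flagged and control spots were dropped, replicate spots were averaged as log2 intensity (999 probes have 10), and the 75th percentile of the probes of the array was subtracted. Probes were named through a RefSeq table (GRCh38.p14, names only, 74.5% of probes; the array design used hg19). For a gene with several probes the one with the highest mean was the main probe. limma (version 3.58.1, R 4.3.3) took in all 8 arrays, with 4 construct means and 4 residual degrees of freedom, and the 22530 probes that any 1 construct had well above background on both its arrays, with Benjamini-Hochberg adjustment. An exact permutation test of 2 arrays against 2 cannot go below 0.333, so none was used. The size rule asked for 2-fold, no overlap, and both arrays of the brighter construct well above background, with dim signals set to the lowest signal well above background on the array, or kept if higher. Bounds use the same floor. The fit was tested on simulated data. The number of arrays limits the precision.

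The genes and lists were chosen with earlier results of these data known. Named genes are the 8 genes, every list gene called in any comparison, or otherwise the 2 genes of a list with the largest difference between MBD-TET1-CDwt and the empty vector, and TET1. Genes most alike in pattern were to be named for tested members whose construct means differed by at least 1, and 0 did. Alternatives were quantile and median scaling, normexp background correction (on the median signals, since no mean signal was used here), the series table, other filters, priors, and probes, and leaving out each clone. Sequences were counted with Python 3.11.15.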

Additional observations from a re-analysis of the deposited data

How the results depend on the processing

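limma called 0 of the tested members of the 8 genes in all 4 comparisons in the main setting and under each of the 17 alternatives, which were the scalings, background correction, filters, priors, a fit on the arrays compared alone, and leaving out each clone. By size, the count of 0 became 2 in TET1-CDwt (PAX8 and EYA1, lower) and 1 in MBD-TET1-CDwt (PAX8, lower) against the empty vector with normexp background correction. Relative to the median of all tested probes under normexp (-0.43 and -0.38), PAX8 was at -1.04 and EYA1 at -0.81 in TET1-CDwt. PAX8 was at -0.92 in MBD-TET1-CDwt, so of these only PAX8 in TET1-CDwt is past 2-fold without that common shift. LHX1, which the size rule did not count, then stood higher, at 1.07 in TET1-CDwt and 1.16 in MBD-TET1-CDwt. Leaving out 1 clone gave 0 to 1 in TET1-CDwt and 0 to 1 in MBD-TET1-CDmut against the empty vector (PAX2 higher without empty vector #2), 0 to 0 in MBD-TET1-CDwt, and 0 to 1 between the fusions (PAX2 lower without MBD-TET1-CDwt #10). The list genes called by limma numbered 0 to 2 between the fusions on leaving out 1 clone (JAG1 and NEFM lower without MBD-TET1-CDwt #10, named after their values were seen) and 0 otherwise.

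The 7 tested genes kept their sign under 75th percentile, quantile, and median scaling in all 4 comparisons. With normexp, signs relative to the median of all probes held for 5 (TET1-CDwt), 5 (MBD-TET1-CDmut), and 3 (MBD-TET1-CDwt) of the 7 genes against the empty vector and for 6 between the fusions, and the cause was not tested. Over all alternatives, 22 of the 32 differences of the 8 genes changed sign at least once, the largest at 0.81 in size (PAX2 between the fusions, by its probe that never reached the background flag). With only the arrays compared, limma gave PAX8 an unadjusted p under 0.05 in both fusions against the empty vector. The limma adjusted p was 0.999 for the wild-type and 0.844 for the mutant fusion. PAX8 passed the filter through the empty vector alone, so these p-values are not independent of it. Without TET1-CDwt #5 the PAX8 log2 difference of TET1-CDwt from the empty vector was 0.65, and without #2 it was -0.43. Without MBD-TET1-CDwt #10 the log2 difference of WT1 from the empty vector was 0.60, and that of PAX2 from MBD-TET1-CDmut was -1.44. Counted by every probe of a gene, 5 genes were well above background in the empty vector and 4 in each other construct.

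Over all probes, leaving out a clone moved the calls of MBD-TET1-CDwt against the empty vector from 26 to between 8 and 97, and those between the fusions from 23 to between 3 and 143. Without the filter these counts were 10 and 11, with a trended prior 15 and 10, with only the arrays compared 2 and 0, and with normexp or probes well above background on all 8 arrays 0 and 0. No paired analysis was made, because the clones were isolated independently and a clone number does not link lines of different constructs. Dim signals limit PAX8 and OSR1.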
